A study of Mus musculus with 2 samples.

Results

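Dnase1l3 (ENSMUSG00000025279) encodes a secreted nuclease, and it was 1 of 479 genes counted in place in sections of 2 subcutaneous mouse tumours. It was chosen by its counts in these same sections, for a level in macrophages of the tumour labelled EKP above that in macrophages of the tumour labelled RKP. That contrast is therefore a description here, and no test is attached to it. Macrophages were taken as barcodes with at least 1 count of Cd68, a lysosomal glycoprotein of phagocytes, and a barcode stands for 1 segmented cell. EKP and RKP are cultured mouse lines whose letters the labels do not spell out. C57BL/6 mice 5 weeks old received cells of a line, grown in 2D and mixed with Matrigel, a basement membrane gel, by subcutaneous injection in the right and left flank. The tumours, labelled as diffuse gastric cancer, were taken at like final sizes. Each group is 1 section of tumour from 1 line, both lie in 1 paraffin block on 1 slide, and the number of mice is not given. The comparison asks how tumours of these lines differ, and the series' title speaks of mutated RHOA, a GTPase that steers the actin cytoskeleton, without tying it to a line.

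The DNASE1L3 enzyme is released by macrophages and dendritic cells and digests DNA that is still wrapped in chromatin, such as that in debris and vesicles of dying cells. Mice and people without it make antibodies to DNA and develop a lupus-like disease. Macrophages take up dying cells in tumours, and Cd86, a costimulatory ligand, Mmp8, a collagenase stored by granulocytes, and Folr2, a folate receptor of resident macrophages, separate some of their states. Pecam1 encodes an adhesion molecule of endothelium.

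The EKP section held 261111 barcodes with 31597828 gene counts and a median of 84, and the RKP section held 255744 barcodes with 44294494 gene counts and a median of 154. Barcodes with 40 or more gene counts, used throughout unless stated, made up 62.0% of the EKP section and 91.9% of the RKP section, and their median was 165 in both. Levels are Dnase1l3 counts scaled to 1000000 gene counts (CPM), from sums over the barcodes of a class. With 1 section per group there is no test between sections. Every interval is an exact 95% interval that covers counting error only, and it says nothing about the spread between tumours. In such sums, fewer cells that express a gene and less RNA per cell cannot be told apart. Cell positions were not used here, and 19 barcode names occur in both files.

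The Cd68 gate held macrophage genes in both sections. Mpeg1, a pore-forming protein of macrophages, stood at 16352 CPM in Cd68-positive EKP barcodes against 2846 CPM in EKP barcodes with neither Cd68 nor Pecam1, and at 17282 against 3587 CPM in RKP. Ms4a7, a membrane protein of macrophages, was 4.99-fold higher in the Cd68-positive barcodes of EKP and 4.13-fold higher in those of RKP. The gate did not remove tumour transcripts. Krt8, a keratin of simple epithelium, stood at 17342 CPM in Cd68-positive barcodes of EKP and 18509 CPM in those of RKP, and 50.3% of the EKP and 65.2% of the RKP ones held a Krt8 count.

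Dnase1l3 was a gene of middling abundance in whole sections. It had 9571 counts in EKP and 8010 in RKP, which ranked it 229 and 273 among 479 genes. Its level over all barcodes was 303 CPM in EKP and 181 CPM in RKP, a ratio of 1.68 (1.63 to 1.73). In counts per barcode, without scaling, the log2 ratio was 0.23 in place of 0.74. Dnase1l3 did not reach the 2-fold size used here to call a gene, which 34.8% of genes above the control level reached with EKP higher and 8.18% with RKP higher. The probes without a target averaged 1.25 CPM in EKP and 0.760 CPM in RKP in barcodes with 40 or more counts.

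In Cd68-positive barcodes Dnase1l3 stood at 541 CPM (527 to 555) in EKP, against 202 CPM (196 to 209) in RKP. These levels rest on 5488 counts in 54191 EKP barcodes and 3618 counts in 88909 RKP barcodes. The share of barcodes with a count was 6.50% in EKP and 3.03% in RKP. After each barcode was thinned to 40 counts the shares were 1.89% and 0.863%. The ratio of the levels was 2.68 (2.57 to 2.79), or 1.42 on the log2 scale. The EKP level passed the RKP level by 2-fold or more for 129 of 474 genes in these barcodes (27.2%), the RKP level did so for 51 (10.8%), and the median gene stood at 0.31 on the log2 scale. Dnase1l3 ranked 85 among the 474. Among the 293 genes at 100 CPM or more in either section it ranked 19, next to Stfa2l1, a stefin of granulocytes, at 2.71-fold and Mfap5, a microfibril protein of fibroblasts, at 2.67-fold.

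The level was uneven among Cd68-positive barcodes and was highest with Cd86. EKP barcodes that held Cd86 but neither Folr2 nor Mmp8 had 1176 CPM (1130 to 1223), and 13.0% of the 10353 of them had a Dnase1l3 count. The matching RKP barcodes had 314 CPM (298 to 332), and 4.22% of 20107 had a count. The ratio was 3.74 (3.49 to 4.00). Dnase1l3 ranked 16 among 467 genes in this class, where 19.3% passed 2-fold towards EKP and 9.42% towards RKP. Over all Cd68-positive barcodes with Cd86 it ranked 20 among 470, at 1079.5 CPM in EKP and 299 CPM in RKP, and the shares past 2-fold were 21.7% and 8.94%.

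Barcodes with both Folr2 and Cd86 had 858 CPM (765 to 958) in EKP and 382 CPM (334 to 436) in RKP. With Folr2 alone the level was 387 CPM (347 to 432) in EKP and 293 CPM (260 to 329) in RKP. That ratio of 1.32 (1.12 to 1.55) was the smallest of the 8 Cd68-positive combinations. Barcodes with none of the 3 genes, the largest class, had 361 CPM (347 to 376) in EKP and 156 CPM (148 to 164) in RKP.

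Mmp8 marked the low end. Barcodes with Mmp8 alone had 138 CPM (100.1 to 185) in EKP and 76.6 CPM (58.9 to 98.0) in RKP. With Mmp8 and Cd86 the level was 425 CPM (330 to 539) in EKP, against 92.9 CPM (69.2 to 122) in RKP. The small classes with Folr2 and Mmp8 together rest on 4 to 16 counts each, and their intervals are wide. All 8 combinations were higher in EKP, and in the class with all 3 genes the interval of the ratio, 0.815 to 4.08, included 1.

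**Figure D1:**
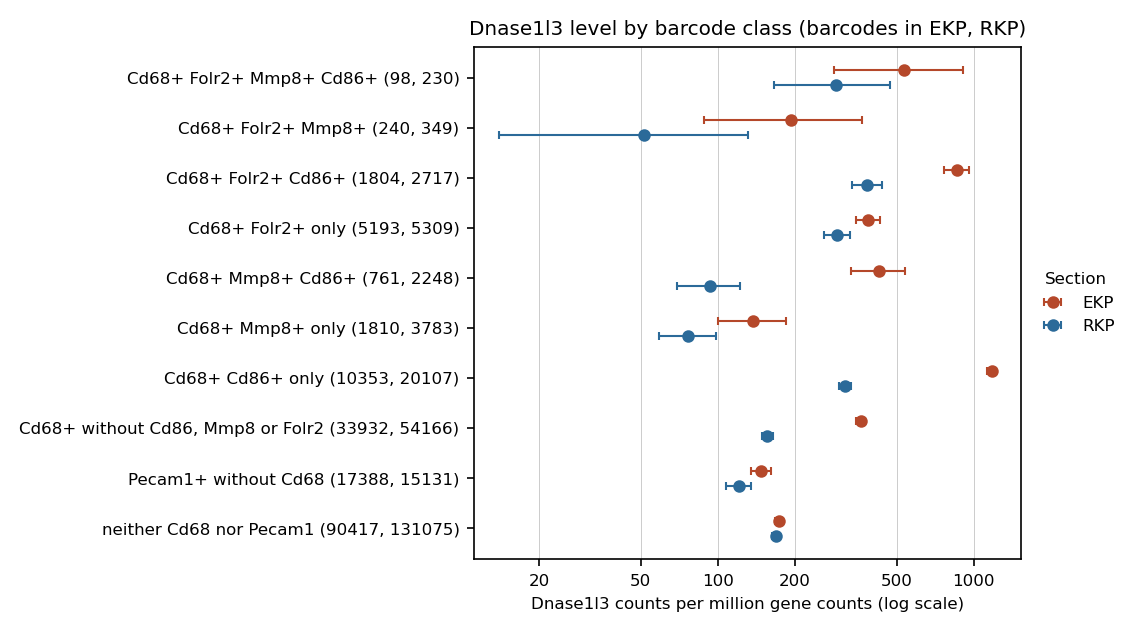
Dnase1l3 level in 10 classes of barcodes with 40 or more gene counts, in CPM on a log axis, with EKP (red) above RKP (blue) in each class and exact 95% Poisson intervals. The EKP point at 1176 for Cd86 without Folr2 or Mmp8 lies farthest right, and the points of barcodes with neither Cd68 nor Pecam1 nearly coincide at 173 and 168.

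In order, the EKP levels ran from Cd86 alone through Folr2 with Cd86, all 3 genes, Mmp8 with Cd86, Folr2 alone and none of the 3 down to Folr2 with Mmp8, the remaining barcodes, Pecam1 and Mmp8 alone. Neighbours with separate intervals in that order were Cd86 alone above Folr2 with Cd86, and the remaining barcodes above Pecam1. The intervals of all other neighbours overlapped. The RKP order was Folr2 with Cd86, Cd86 alone, Folr2 alone, all 3 genes, the remaining barcodes, none of the 3, Pecam1, Mmp8 with Cd86, Mmp8 alone and Folr2 with Mmp8. There the first pair was separate, as were none of the 3 above Pecam1, and the intervals of other neighbours overlapped.

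Cd86 and Dnase1l3 climbed together in both sections. In EKP, Cd68-positive barcodes with 0, 1, 2 and 3 or more Cd86 counts had 354, 853, 1376 and 1645 CPM of Dnase1l3. In RKP the levels at the same Cd86 counts were 161, 228, 327 and 543 CPM. Barcodes with any Cd86 were 3.05-fold (2.89 to 3.22) above those without it in EKP and 1.86-fold (1.74 to 1.99) in RKP. With Folr2 the ratio was 0.949 (0.874 to 1.03) in EKP, an interval that includes 1, and 1.64 (1.49 to 1.80) in RKP. Its log2 value in EKP moved to -0.70 when 2 counts made a gene positive. With Mmp8 they matched, at 0.436-fold in EKP and 0.419-fold in RKP.

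Dnase1l3 was also followed along the Cd68 count. With 1, 2, 3 and 4 or more Cd68 counts, EKP barcodes had 369, 612, 817 and 814 CPM. RKP barcodes had 193, 213, 213 and 205 CPM. Cd86-positive barcodes were 24.0% of the Cd68-positive ones in EKP and 28.5% in RKP, and giving both sections the EKP mixture of the 8 combinations left a ratio of 2.65, or 2.77 with the RKP mixture.

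Lag3, an inhibitory receptor best known from T cells that binds MHC class II, also went with high levels. Cd68-positive barcodes with Lag3 had 1640.4 CPM (1551 to 1734) of Dnase1l3 in EKP and 513 CPM (469 to 560) in RKP. Among those with both Cd86 and Lag3, 30.1% of 1378 EKP barcodes held Dnase1l3, at 2611 CPM, and 10.6% of 1792 RKP barcodes did, at 775 CPM. Lag3-positive over Lag3-negative gave 3.64-fold (3.41 to 3.87) in EKP and 2.78-fold (2.52 to 3.06) in RKP. The ratio exceeded 1 in 10 of 10 successive parts of the EKP file and in 9 of 10 parts of the RKP file.

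The presence of a Krt8 count in the barcode went with Dnase1l3 in opposite directions in the sections. In EKP, Cd68-positive barcodes with Krt8 had 598 CPM (579 to 618) of Dnase1l3, against 453 CPM (432 to 474) in those without. In RKP, the barcodes with Krt8 had 165 CPM (158 to 172), against 307 CPM (291 to 323) in those without. With the squamous gate described below left out, RKP barcodes without Krt8 had 281 CPM (266 to 297). Along the Krt8 count, at 0, 1 to 4, 5 to 14 and 15 or more, EKP levels were 453, 813, 513 and 248 CPM. The EKP barcodes richest in Krt8 thus lay below those without it. RKP levels at the same Krt8 counts were 307, 203, 134 and 128 CPM. The EKP over RKP ratio was 3.62 (3.43 to 3.82) among Krt8-positive barcodes and 1.48 (1.38 to 1.59) among Krt8-negative ones. Leaving out every barcode with a Krt8 or Pecam1 count lowered the log2 ratio of the Cd68-positive class to 0.42. Among Krt8-negative barcodes with Cd86 the level was 846 CPM in EKP and 412 CPM in RKP, a ratio of 2.05 (1.86 to 2.26), and without Cd86 it was 301 CPM in EKP and 243 CPM in RKP. Krt8-positive barcodes were deeper, with a median of 212 gene counts in both sections against 134 in EKP and 136 in RKP for Krt8-negative ones. The 4 epithelial markers summed to 52685.5 CPM in Cd68-positive EKP barcodes and 56563 CPM in RKP ones. In Dnase1l3-positive against Dnase1l3-negative ones they summed to 52186 against 52759 CPM in EKP and 62129 against 56385 CPM in RKP. Their part, and that of depth, in this split was not tested. Within successive parts of the file, Krt8-positive over Krt8-negative exceeded 1 in 8 of 10 EKP parts (0.671 to 1.51) and lay below 1 in 9 of 10 RKP parts (0.165 to 1.07).

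**Figure D2:**
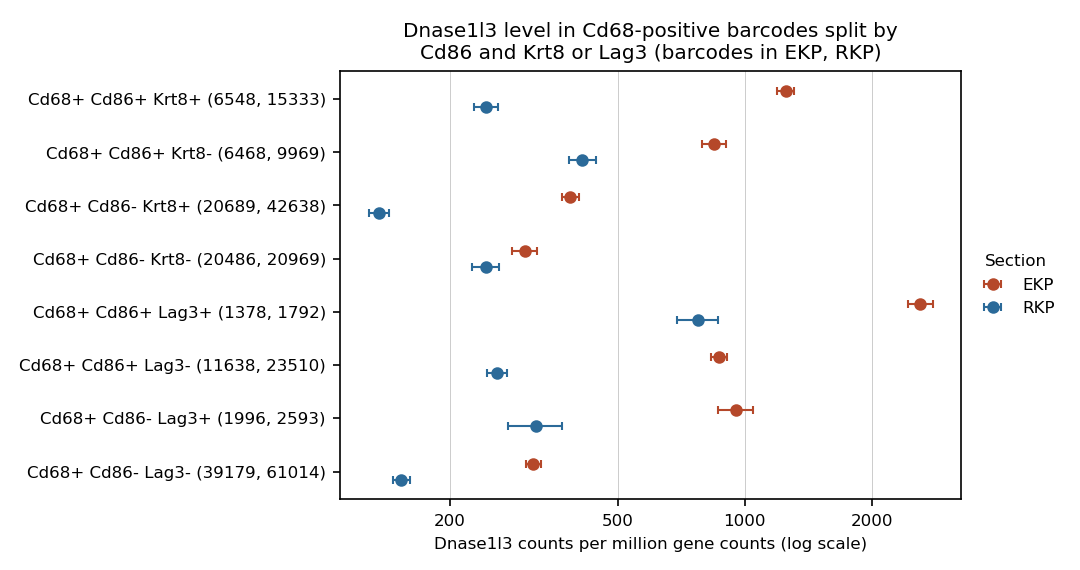
Dnase1l3 level in Cd68-positive barcodes split by Cd86 with Krt8 (upper 4 rows) and by Cd86 with Lag3 (lower 4 rows), in CPM on a log axis, with EKP (red) above RKP (blue) and exact 95% Poisson intervals. The sections lie farthest apart with Cd86 and Krt8, at 1253 and 244, and closest with neither, at 301 and 243.

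The gap varied with depth. Among Cd68-positive barcodes with 40 to 79 gene counts the levels were 305 CPM in EKP and 373 CPM in RKP, a ratio of 0.818 (0.651 to 1.02). The ratio was 1.85 (1.69 to 2.01) at 80 to 159 counts, 3.16 (2.98 to 3.34) at 160 to 319 and 3.20 (2.88 to 3.55) at 320 or more. In Cd68-negative barcodes the 4 ratios lay between 0.853 and 1.14. The highest negative control probe stayed at or under 20.2 CPM in each of these bins. Within Krt8-negative Cd68-positive barcodes the ratio was 0.655 (0.494 to 0.864) at 40 to 79 counts and 2.28 (1.72 to 3.03) at 320 or more, so the rise with depth was seen there too.

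**Figure D3:**
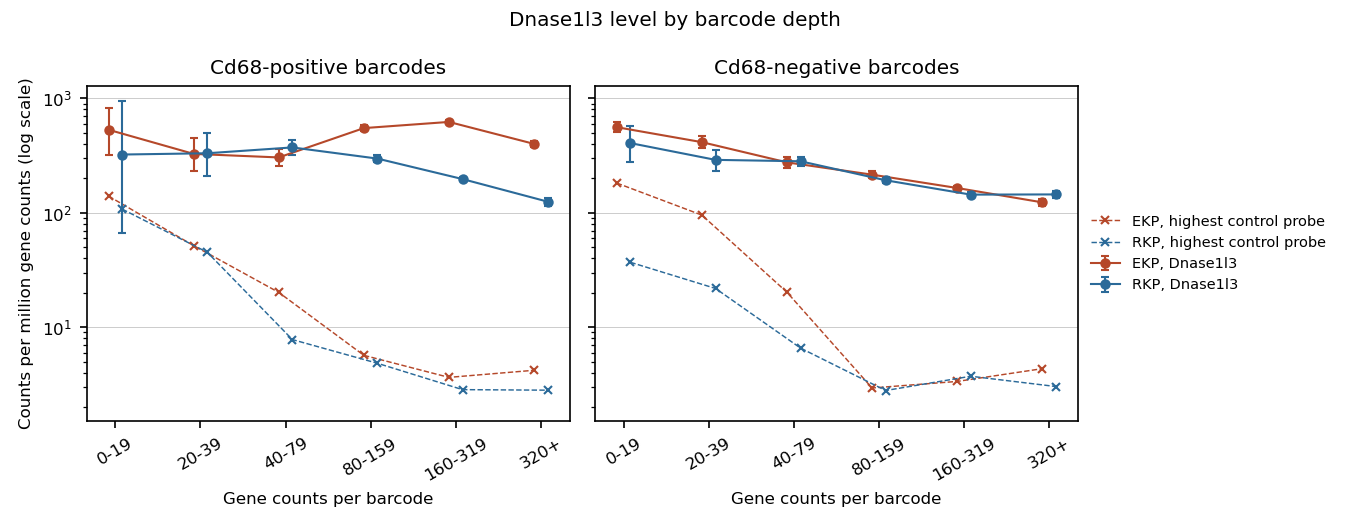
Dnase1l3 level against gene counts per barcode in Cd68-positive (left) and Cd68-negative (right) barcodes of EKP (red) and RKP (blue), in CPM on a log axis, with exact 95% Poisson intervals; crosses mark the highest negative control probe. EKP lies above RKP in Cd68-positive barcodes from 80 counts on, by 1.85-fold to 3.20-fold.

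Within the EKP section the level was patchy. When each file was cut into 10 successive parts, the Cd68-positive level ran from 131 to 1167 CPM in EKP with a median of 542, and from 126 to 325 CPM in RKP with a median of 207. In EKP 7 parts lay above every RKP part and 3 lay within the RKP range. Without the squamous gate described below the highest RKP part was at 250.2 CPM. The order of barcodes in the file was taken as a rough stand-in for place, and parts of 1 section are not replicates.

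**Figure D4:**
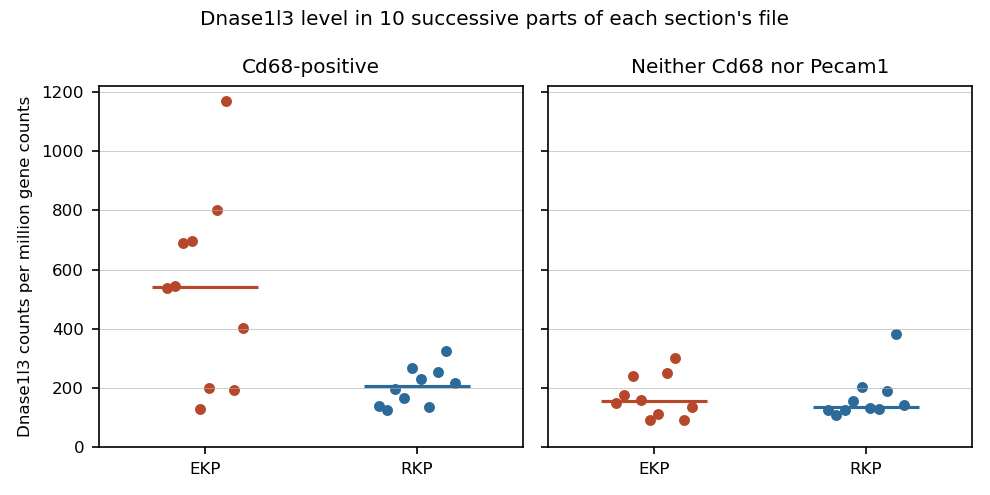
Dnase1l3 level in 10 successive parts of each section's file, EKP left of RKP, for Cd68-positive barcodes (left panel) and barcodes with neither Cd68 nor Pecam1 (right panel), in CPM; bars mark the median part. Cd68-positive EKP parts spread from 131 to 1167, and 3 of them fall among the RKP parts.

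Outside the Cd68 gate the sections were close. Barcodes with neither Cd68 nor Pecam1 had 173 CPM (167 to 180) in EKP and 168 CPM (163 to 174) in RKP, a ratio of 1.03 (0.982 to 1.08), or 1.20 (1.14 to 1.27) without the squamous gate. Pecam1-positive barcodes without Cd68 had 147 CPM (134 to 161) in EKP and 121 CPM (108 to 135) in RKP. Pecam1-positive over remaining barcodes gave 0.848-fold (0.768 to 0.934) in EKP and 0.719-fold (0.638 to 0.808) in RKP. Against remaining barcodes outside the squamous gate, the ratio was 0.848-fold in EKP and 0.840-fold (0.745 to 0.945) in RKP. Cd68-positive over remaining barcodes gave 3.12-fold (2.98 to 3.26) in EKP and 1.20-fold (1.15 to 1.26) in RKP. The RKP log2 ratio of 0.26 turned to -0.12 without barcodes holding Krt8 or Pecam1, a set that kept barcodes of the squamous gate. With the squamous gate left out instead, the RKP ratio was 1.34-fold (1.27 to 1.40). Cd68-positive barcodes held 61.9% of the Dnase1l3 counts in EKP, with 33.7% of all gene counts, and 46.0% in RKP, with 40.9% of all gene counts.

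The remaining barcodes were not uniform. Those with 2 or more summed counts of Mpeg1, Ms4a7, Cd86 and Cybb, the catalytic subunit of the phagocyte oxidase, had 419 CPM in EKP and 229 CPM in RKP. After these and barcodes with squamous genes were set aside, 117 CPM (111 to 123) in EKP and 120 CPM (115 to 125) in RKP were left, with a count in 2.02% and 1.99% of barcodes and median depths of 163 and 156. These barcodes can still hold 1 count of a macrophage or squamous gate gene. Their share serves as a rough floor, and none held more than 3 Dnase1l3 counts in EKP or 4 in RKP. Mmp8 alone in EKP (1.82% of barcodes) did not exceed that share. In RKP, Mmp8 alone (1.45%), Mmp8 with Cd86 (1.73%), Mmp8 with Folr2 (1.15%) and Pecam1 (1.74%) did not either. The median depths of these RKP classes were 204, 239, 212 and 150. Barcodes with 2 or more Dnase1l3 counts made up 0.387% of the EKP class with Mmp8 alone, however, against 0.139% of those outside both gates. In RKP they made up 0.311% with Mmp8 and Cd86, 0.172% with Pecam1, 0.159% with Mmp8 alone and 0% with Mmp8 and Folr2. The RKP share outside both gates was 0.144%. The highest count in RKP Pecam1-positive barcodes was 6. Whether these classes express the gene was not tested.

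Barcodes with squamous genes stood apart in RKP. Barcodes with 2 or more summed counts of Krt5, Calm4, Dsc3 and Krt79, genes of stratified squamous epithelium, had 1015 CPM (949 to 1084) of Dnase1l3 in RKP, on 872 counts in 5420 barcodes. Other RKP barcodes had 163 CPM. In EKP this squamous gate held 257 barcodes and 9 Dnase1l3 counts, at 176 CPM (80.5 to 334). The gate was chosen after these genes had been seen beside Dnase1l3, so the difference is a description. Within it, 195 RKP barcodes with Cnfn, cornifelin of the cornified envelope, had 8703 CPM (7863 to 9609), and 71.3% of them held Dnase1l3, against 589 CPM without Cnfn. The squamous gate held 1.96% of RKP gene counts and 11.1% of RKP Dnase1l3 counts.

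Barcodes with many Dnase1l3 counts differed between sections. Of 123 EKP barcodes with 5 or more, 91.1% were Cd68-positive and none met the squamous gate. Of 89 such RKP barcodes, 55.1% were Cd68-positive and 37.1% met the squamous gate. Leaving the squamous gate out moved the Cd68-positive levels to 541 CPM in EKP and 192 CPM in RKP, and Cd68-positive over remaining barcodes to 1.34-fold (1.27 to 1.40) in RKP.

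Genes that accompanied Dnase1l3 were found within each section by comparing Cd68-positive barcodes with and without a count of it. In EKP, 3521 positive barcodes were set against 50670 negative ones, and 7 of 470 genes (1.49%) passed 2-fold towards the positive ones and 97 (20.6%) towards the negative ones. The positive barcodes were deeper, with a median of 216 gene counts against 165.5, and the part of depth in these ratios was not tested. Lag3 led, at 1280 CPM in positive and 370 CPM in negative barcodes, a ratio of 3.46 (3.22 to 3.71). Capns2, a calpain small subunit, followed at 2.50-fold. Gatm, the first enzyme of creatine synthesis, was 2.33-fold higher, and 54.8% of positive against 26.2% of negative barcodes held it. Ltc4s, which makes leukotriene C4, was 2.18-fold higher, and Hap1, a huntingtin-binding protein, 2.14-fold. Ldhb, a lactate dehydrogenase subunit, was 2.08-fold higher and Cybb 2.01-fold. Cd86 at 1.98-fold, Havcr2, the inhibitory receptor TIM-3, at 1.95-fold and Psmb8, an immunoproteasome subunit, at 1.90-fold came just under 2-fold. Lowest in positive EKP barcodes were Stfa2l1 at 0.172-fold, Cstdc4, another stefin family member, at 0.186-fold, Cd36, a scavenger receptor for lipids, at 0.225-fold, Asprv1, an epidermal protease, at 0.276-fold (7.80-fold in RKP, or 0.914-fold there without the squamous gate) and Atp6v0d2, a proton pump subunit of macrophages and osteoclasts, at 0.328-fold.

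Cybb, Lag3 and Cd86 climbed with the Dnase1l3 count itself in EKP. Cybb stood at 5254, 8496, 12725 and 18524 CPM in EKP barcodes with 0, 1, 2 and 3 or more Dnase1l3 counts. Lag3 was held by 5.31%, 16.7%, 21.6% and 31.8% of them. Cd86 was held by 65.3% of the 450 barcodes with 3 or more, against 22.5% of those with none, and Mpeg1 by 99.3% against 68.9%. Krt8 ran the other way as a level, at 11263 CPM in that highest group against 17356 CPM in barcodes with none, although 69.6% against 49.2% held a count. The part of depth in these shares was not tested.

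In RKP, 2698 positive barcodes were set against 86211 negative ones, and 31 of 435 genes (7.13%) passed 2-fold towards the positive ones and 8 (1.84%) towards the negative ones. The leading genes were squamous. Cnfn had 117 counts in positive and 35 in negative barcodes, at least 5.86 on the log2 scale when the negative side is set to its control level. Fam25c, at 97.9 CPM in positive against 2.60 CPM in negative barcodes, was at least 4.84 on that scale. Them5, a thioesterase, was 41.3-fold higher, Calm5 40.2-fold, Gm94 36.8-fold and Calm4 25.3-fold, the Calm genes encoding calmodulin-like proteins of skin. Crct1, a gene of the epidermal differentiation complex, was 19.9-fold higher. Krt16, a keratin of activated epidermis, was 10.9-fold higher and Ly6g6c, of the Ly6 family, 9.96-fold. These genes were rare, since Calm4 was held by 2.22% of positive barcodes and Cnfn by 1.19%. In EKP, Calm4 stood at 11.3 CPM in positive and 18.6 CPM in negative barcodes. The lowest in RKP were Mmp8 at 0.412-fold, Arg1, arginase of activated myeloid cells, at 0.554-fold, Cxcr2, a neutrophil chemokine receptor, at 0.562-fold, Atp6v0d2 at 0.593-fold and Ptn, a growth factor, at 0.599-fold.

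**Figure D5:**
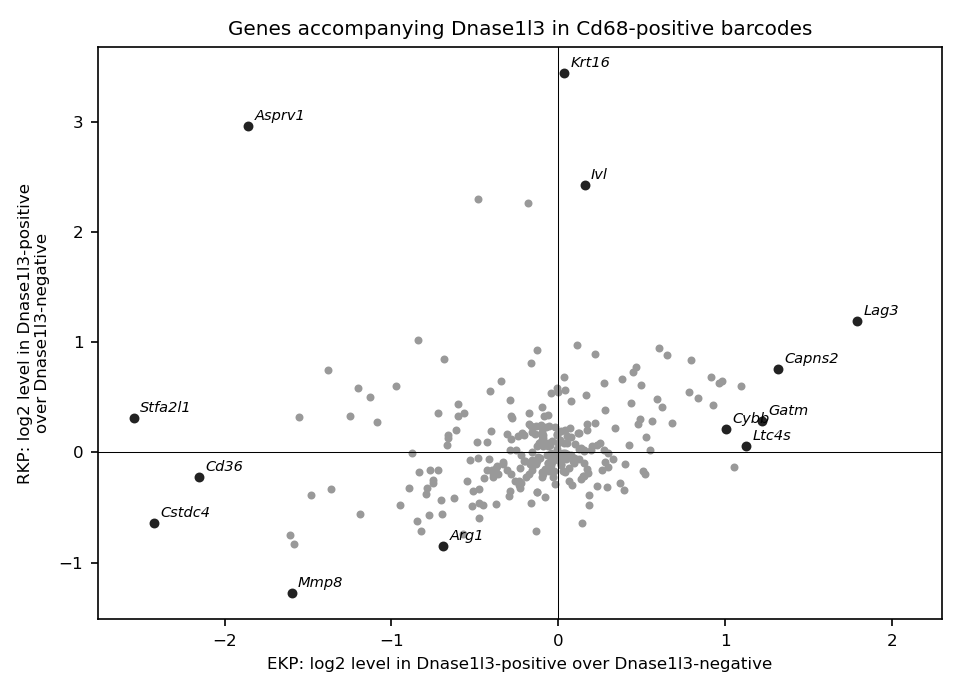
Log2 ratio of each gene's level in Dnase1l3-positive over Dnase1l3-negative Cd68-positive barcodes, EKP on the horizontal and RKP on the vertical axis, for 277 genes held by at least 1% of the positive barcodes in both sections. Lag3 lies highest on the EKP axis at 1.79 with 1.19 in RKP, and Mmp8 is low in both. Krt16 at 3.45 and Asprv1 at 2.96 stand apart in RKP, with 0.04 and -1.86 in EKP. Calm4 and Cnfn are not shown, since under 1% of positive EKP barcodes held them.

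With the squamous gate left out, 9 of 432 RKP genes (2.08%) passed 2-fold towards positive barcodes and 1.62% towards negative ones, against 1.49% and 20.4% in EKP. The leading ones were Ppp1r1a, an inhibitor of protein phosphatase, at 2.90-fold (2.10 to 3.93), Ambp, a plasma protein precursor, at 2.56-fold, and Lag3 at 2.36-fold (2.12 to 2.61). Ppp1r1a and Ambp were held by under 2% of the positive barcodes. Lag3 was the 1 gene at least 2-fold higher in both sections. Cd86 was 1.60-fold higher in these RKP barcodes and Havcr2 1.56-fold. Gatm at 1.24-fold, Cybb at 1.18-fold and Ltc4s at 1.07-fold (0.942 to 1.21) stayed near 1 in RKP. The Lag3 ratio exceeded 1 in 10 of 10 parts of the file in EKP (1.59 to 4.78) and in 10 of 10 in RKP (1.41 to 3.16). That of Cd86 did so as well, and that of Mmp8 lay below 1 in all 10 parts of each section.

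The macrophage list, 6 measured genes with Cd68 among them, had 4 of 6 above 1 beside Dnase1l3 in each section, with a median of 0.43 in EKP and 0.26 in RKP on the log2 scale, against medians over all kept genes of -0.29 and 0. Ms4a7 was 1.73-fold higher in positive EKP barcodes and 1.78-fold in positive RKP ones. Itgam, an integrin of monocytes and granulocytes, was lower, at 0.584-fold in EKP and 0.676-fold in RKP. The resident-like list split by section. In EKP 1 of 7 genes was above 1, and the list's median was -1.25. Retnla, a resistin-like product of alternatively activated macrophages, was at 0.239-fold. Cd5l, a scavenger protein of tissue macrophages, and Lyve1, a hyaluronan receptor, were at 0.222- and 0.420-fold. The more abundant Mrc1, Pf4 and Folr2 were nearer to 1 in EKP, at 1.13-, 0.875- and 0.788-fold. The list summed to 19641.5 CPM in positive and 20677 CPM in negative EKP barcodes, and to 16261 and 15215 CPM in RKP. In RKP 5 of 7 were above 1, the list's median was 0.33, and Folr2 was 1.56-fold higher, with Pf4 at 0.857-fold and Marco at 0.910-fold. All 7 stood higher in EKP than RKP over Cd68-positive barcodes as a whole, Lyve1 by 3.03-fold, with a list median of 0.65 against 0.31 over all genes on the log2 scale. In the inflammatory list, 2 of 5 were above 1 in each section, Cd86 and Ccl12, a monocyte chemokine, with Arg1, Ccl9 and Mmp8 lower.

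Of dendritic markers only Cd209a, a C-type lectin of monocyte-derived dendritic cells, and Lamp3, a lysosomal protein of mature ones, were measured. Cd209a was 0.510-fold in positive EKP barcodes and 1.52-fold in positive RKP ones. Dnase1l3 stood at 306 CPM (260 to 358) in EKP and 383 CPM (329 to 443) in RKP in Cd68-positive barcodes with Cd209a, a ratio of 0.800 (0.642 to 0.997). Lamp3 had 7.53 CPM in positive and 27.8 CPM in negative EKP barcodes and no count in positive RKP ones. The dendritic share of the Dnase1l3 counts was not tested beyond this.

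Lag3 and Havcr2 are also T cell genes, and 4 of 4 T cell markers had ratios above 1 in Dnase1l3-positive barcodes of both sections. These, Cd3d, Cd3e, Cd8a and Ctla4, summed to 1001 CPM in positive and 762 CPM in negative EKP barcodes and to 1674 and 1100.0 CPM in RKP, and none was at 0. Cd3e was 1.41-fold higher in positive EKP barcodes and 1.53-fold in RKP. Ctla4 was near 1 in EKP, at 1.02-fold, and at 1.61-fold in RKP. On the log2 scale the list's median was 0.47 in EKP and 0.65 in RKP, against -0.29 and 0 over all kept genes. The part of T cell markers in the Lag3 result was not tested. The list's sum over Cd68-positive barcodes was lower in EKP, at 780.2 CPM, than in RKP, at 1119 CPM. The 5 fibroblast markers, none at 0, summed to 52057 CPM in positive and 59136 CPM in negative EKP barcodes, and to 36834 and 34638 CPM in RKP. Over Cd68-positive barcodes their sum was 58548 CPM in EKP and 34704 CPM in RKP, and their part in the gap of Dnase1l3 was not tested either. Dnase1l3 was lower with Lum, a matrix proteoglycan, than without in EKP, at 483 against 596 CPM, and higher with it in RKP, at 260 against 172 CPM.

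Other genes that act on DNA or dying cells were scarce in the panel. Of the list for DNA clearance and sensing only Cd36 and Marco, a scavenger receptor for bacteria and particles, were measured. Both were at least 2-fold lower in positive EKP barcodes, as were 20.6% of all genes there. Marco was at 0.371-fold in EKP, on low levels of 10.0 CPM in positive and 27.1 CPM in negative barcodes, and at 0.910-fold in RKP. Cd36 was 3.04-fold higher in EKP than RKP over Cd68-positive barcodes, in the same direction as Dnase1l3, while within EKP it was lower in Dnase1l3-positive barcodes. Of the interferon response only Rsad2, an antiviral enzyme, and Ifitm6 were measured, at 0.896- and 0.808-fold in positive EKP barcodes and at 1.13- and 0.895-fold in RKP.

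Across the 10 classes in both sections, which gave 20 points, the log2 level of Lag3 was most like that of Dnase1l3 (Pearson r = 0.71, and 0.72 in EKP and 0.83 in RKP over 10 points each). Lst1, a leukocyte transcript, followed at 0.61, then Cd209a at 0.56, Sod3, an extracellular superoxide dismutase, at 0.52 and Ms4a6b, of the Ms4a family, at 0.51. For Sod3 the correlation within EKP was -0.26. Points of 1 section share a library and gate genes, so these values rank genes and nothing more.

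In barcodes with neither Cd68 nor Pecam1 the accompanying genes were again led by macrophage genes in EKP and squamous ones in RKP. In EKP, 2485 positive ones had Cybb 2.79-fold, Cd86 2.76-fold and Mpeg1 2.23-fold higher. The T cell marker Cd8a, at 2.37-fold (2.06 to 2.72), ranked above Mpeg1, and Lag3 was 2.02-fold higher. In all, 9 of 471 EKP genes (1.91%) reached 2-fold, with 6.58% at least 2-fold lower. In RKP, 40 of 440 (9.09%) did and 9.32% were as much lower, led by Cnfn, with Gm94 at 49.4-fold and Calm5 at 32.1-fold. Among Pecam1-positive barcodes, 394 in EKP held Dnase1l3, with Cybb 3.53-fold and Cd86 3.25-fold higher than in those without. In RKP 263 did, with Cd86 3.40-fold higher. The largest ratios in Pecam1-positive barcodes were of B4galnt2 in EKP, on 5 counts in the positive ones, and of Neurod1 in RKP, on 3. The shares of genes at least 2-fold higher were 7.87% in EKP and 9.48% in RKP, those as much lower were 3.4% and 3.55%, and many rest on few counts.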

How the data were processed

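Xenium In Situ, an imaging assay that locates and decodes transcripts in tissue, was run on 1 section per group. The authors deposited raw transcript counts per feature and barcode, without normalization, per the file headers, for 479 genes and 20 negative control probes. The submitters' processing notes name Seurat 4.4.0 and give it no role. For segmentation, quality limits and genome build, details are not given in the sources used, cell positions were not used here, and transcripts of a neighbour can fall into a barcode.

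Sections were grouped by title. Dnase1l3, the gates and the lists were chosen with earlier results of these data known. A gate gene was positive at 1 count, in barcodes with 40 or more gene counts. Counts were summed and scaled to 1000000 gene counts (CPM), leaving Dnase1l3 out of the total for accompanying genes. Genes entered a comparison if either side's sum exceeded the highest negative control probe; at or below that level, the lower side took it, with a floor of 3 counts. Genes were called at 2-fold, a rule of size. Shares have Clopper-Pearson, levels Poisson and ratios conditional binomial 95% intervals. Thinning drew 40 counts per barcode. Doublets were not called. Named accompanying genes are the 10 highest and 5 lowest ratios among genes held by at least 1% of positive barcodes, the 5 most like profiles over log2(CPM + 10), and measured list members; 1 of these genes is not reported here. The squamous and other-macrophage gates, and the Krt8, Lum, Lag3 and Cd209a splits, were added after values were seen, as were the genes next to Dnase1l3 in rank and the genes by Dnase1l3 count. Code was tested on simulated data and ran in Python 3.11.15 with numpy 2.4.6, scipy 1.17.1 and pandas 2.3.3. Alternatives covered depth limits, gates, scaling, control subtraction and filters.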

Additional observations from a re-analysis of the deposited data

Results flagged for a closer look

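Several splits of Dnase1l3 ran in opposite directions in the 2 sections, and none of these differences was tested, since each section is 1 sample. Folr2-positive over Folr2-negative Cd68-positive barcodes gave -0.075 in EKP and 0.71 in RKP on the log2 scale. The EKP interval, 0.874 to 1.03 as a ratio, includes 1, and 6 of 10 parts of the EKP file lay above 1, against 9 of 10 in RKP. Folr2 with Cd86 over Cd86 alone gave -0.46 in EKP and 0.28 in RKP. Cd209a-positive over Cd209a-negative gave -0.85 in EKP and 0.96 in RKP. Krt8-positive over Krt8-negative gave 0.40 in EKP and -0.89 in RKP over Cd68-positive barcodes, and 0.57 in EKP and -0.76 in RKP over those with Cd86. Lum-positive over Lum-negative gave -0.30 in EKP and 0.59 in RKP. The squamous gate over other barcodes gave -0.74 in EKP, on 9 counts, and 2.64 in RKP. That EKP interval, 0.273 to 1.13 as a ratio, also includes 1.

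Barcodes under 40 gene counts entered only the whole-section values and the plot by depth. They held Dnase1l3 at 472 CPM in EKP and 316 CPM in RKP, above the highest negative control probe there, at 124 CPM in EKP and 23.0 CPM in RKP.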

How the results depend on the processing

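All values here are log2 ratios of Dnase1l3. EKP over RKP in Cd68-positive barcodes (1.42) was positive under all alternatives: 1.49 at 80 and 1.67 at 160 or more gene counts, 1.79 with genes positive at 2 counts, 1.14 with barcodes weighted alike, 1.32 in counts per barcode, 1.13 as thinned shares, and 1.49 without the squamous gate, an alternative chosen after seeing the data. It was 0.42 without barcodes holding Krt8 or Pecam1. Over whole sections (0.74) it was 0.23 in counts per barcode, 0.79 without the 10 most abundant genes, 0.86 at 160 or more counts and 0.88 without the squamous gate. Cd68-positive over remaining barcodes in EKP (1.64) gave 1.74 at 80 or more counts, 1.76 at 2 counts and 1.05 without Krt8 or Pecam1. In RKP (0.26) it turned to -0.12 without Krt8 or Pecam1, where barcodes of the squamous gate were kept, and was 0.42 without the squamous gate. Folr2-positive over Folr2-negative in EKP (-0.08) gave -0.70 at 2 counts and -0.23 without Krt8 or Pecam1. The cause of these shifts was not tested. The count of genes at least 2-fold higher in EKP (129) ranged from 93 to 134. No paired analysis was possible because there is 1 section per group. Depth limits the EKP section most, where 38.0% of barcodes lay under 40 counts, and single counts per barcode limit every share.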
